A study of Homo sapiens with 24 samples.

Results

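The genes described here are 57 members of the machinery that folds, modifies and exports proteins in the endoplasmic reticulum (ER): 13 chaperones and folding factors, 7 enzymes of disulphide bond formation, 8 components of ER-associated degradation (ERAD), 15 components of the signal recognition, translocation and signal peptidase complexes, 5 subunits of the oligosaccharyltransferase and 9 factors of transport between the ER and the Golgi. They were chosen by name and role, with earlier results of these data known, and all 57 were found among the 28395 genes counted. The cells were 2 established human myeloma lines grown in RPMI-1640. The labels give MM1.S as p53-WT and JJN3 as p53-null. Each line was treated for 24 h with vehicle, with CX-5461 at 500 nM, with panobinostat at 50 nM or with both drugs at these doses, and 3 libraries were made per line and treatment, 24 in all. CX-5461 inhibits RNA polymerase I, which transcribes ribosomal DNA, and panobinostat inhibits histone deacetylases. In JJN3 the treatment label of CX-5461 replicates 2 and 3 gives compound names that differ from CX-5461 in the last digit, whereas their titles give CX-5461; they were taken as CX-5461. The label for genotype reads wild type in every library, and p53 status is given by the labels alone. Nothing in the labels says that the libraries of a group came from separate cultures, so the p-values measure the spread between libraries, which may be technical. Each line is 1 cell line, so a difference between the lines cannot be tied to p53 status.

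Secretory and membrane proteins enter the ER through the SEC61 channel while they are being made, lose their signal peptide to the signal peptidase, receive N-linked glycans from the oligosaccharyltransferase and are folded by chaperones such as BiP (HSPA5) and GRP94 (HSP90B1) and by protein disulphide isomerases. Proteins that fail to fold are sent back to the cytosol for degradation, and folded proteins leave in COPII vesicles. Plasma cells, and the myeloma cells that derive from them, secrete antibody and express this machinery at high levels. The unfolded protein response sets its level through the transcription factors XBP1, ATF6 and ATF4, and the first of these is also needed for plasma cells to form.

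XBP1 and ATF6 are known to act through 3 short promoter motifs, the ER stress response elements ERSE (CCAAT, then 9 free bases, then CCACG) and ERSE-II (ATTGG, then 1 free base, then CCACG) and the unfolded protein response element UPRE (TGACGTGG). These were searched on both strands of RefSeq windows that run from 250 bases before to 50 bases after each gene's start (assembly GRCh38.p14). Of the 57 genes, 50 had a window. Among these, 10 (20%) held an ERSE or ERSE-II, against 44 (0.161%) of the 27305 genes with a window. A UPRE stood in 7 of the 50 (14%), against 253 (0.927%) of all genes. The ERSE and ERSE-II matches lay mostly in the folding factors, of which 7 of 13 (53.8%) held one, and in none of the 14 translocation, 4 oligosaccharyltransferase and 7 transport genes with a window. In HYOU1, an ER relative of HSP70, the UPRE overlaps 1 of its 2 ERSE-II. The genes were chosen as machinery that XBP1 and ATF6 are known to control, so a share above that of all genes is no test. A match to these letters is a description of the window and does not show that a factor binds there. The windows up to the start are printed for some of the folding factors with a motif, and for HERPUD1 and ERO1B, which rose in MM1.S with panobinostat. The sequences run 5′ to 3′ on the gene's strand, with the fixed letters of each motif in capitals:
HSPA5 (chr9:125241344-125241593, minus strand): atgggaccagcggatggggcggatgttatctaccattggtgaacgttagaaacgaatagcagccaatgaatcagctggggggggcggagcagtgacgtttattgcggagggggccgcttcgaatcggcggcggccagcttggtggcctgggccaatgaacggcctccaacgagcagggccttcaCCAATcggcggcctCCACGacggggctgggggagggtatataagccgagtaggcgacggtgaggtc
HSP90B1 (chr12:103930160-103930409, plus strand): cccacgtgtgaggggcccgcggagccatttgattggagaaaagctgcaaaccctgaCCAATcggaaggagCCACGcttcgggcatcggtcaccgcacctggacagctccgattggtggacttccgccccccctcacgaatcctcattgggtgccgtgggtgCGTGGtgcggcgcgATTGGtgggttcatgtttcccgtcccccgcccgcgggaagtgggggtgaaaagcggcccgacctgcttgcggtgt
HYOU1 (chr11:119057206-119057455, minus strand): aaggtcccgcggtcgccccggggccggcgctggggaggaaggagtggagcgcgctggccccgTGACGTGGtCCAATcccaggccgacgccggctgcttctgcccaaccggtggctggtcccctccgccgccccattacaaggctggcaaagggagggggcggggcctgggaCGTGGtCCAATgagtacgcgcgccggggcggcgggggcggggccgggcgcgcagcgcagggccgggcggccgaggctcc
SDF2L1 (chr22:21642052-21642301, plus strand): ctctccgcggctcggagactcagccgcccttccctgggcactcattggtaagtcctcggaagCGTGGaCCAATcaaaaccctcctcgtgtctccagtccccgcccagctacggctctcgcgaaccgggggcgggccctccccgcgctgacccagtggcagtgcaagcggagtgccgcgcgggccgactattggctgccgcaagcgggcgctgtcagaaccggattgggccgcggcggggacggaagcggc
CRELD2 (chr22:49918384-49918633, plus strand): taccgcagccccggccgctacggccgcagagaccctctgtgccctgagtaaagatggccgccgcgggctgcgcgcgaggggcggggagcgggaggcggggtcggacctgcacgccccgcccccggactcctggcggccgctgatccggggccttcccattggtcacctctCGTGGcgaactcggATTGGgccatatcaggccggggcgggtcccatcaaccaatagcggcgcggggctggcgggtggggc
HERPUD1 (chr16:56931892-56932141, plus strand): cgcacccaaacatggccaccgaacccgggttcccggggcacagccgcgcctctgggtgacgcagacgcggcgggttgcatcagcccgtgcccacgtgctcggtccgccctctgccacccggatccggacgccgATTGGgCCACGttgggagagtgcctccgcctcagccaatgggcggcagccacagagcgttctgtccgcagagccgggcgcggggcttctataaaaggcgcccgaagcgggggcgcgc
ERO1B (chr1:236281959-236282208, minus strand): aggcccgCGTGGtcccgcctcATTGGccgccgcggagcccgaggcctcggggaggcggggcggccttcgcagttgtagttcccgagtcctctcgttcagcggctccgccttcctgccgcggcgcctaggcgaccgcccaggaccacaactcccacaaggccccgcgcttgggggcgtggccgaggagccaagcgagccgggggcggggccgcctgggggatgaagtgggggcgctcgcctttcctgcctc

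By exact match, HSPA5 holds 1 ERSE from 66 to 48 bases before the start and HSP90B1 holds 2 in opposite orientations. SDF2L1, a partner of BiP, and HERPUD1, a scaffold of the ERAD ubiquitin ligase, each hold 1 ERSE-II. Inexact copies of a motif were not searched for. The ERSE of ERO1B, an oxidase that recharges protein disulphide isomerases, lies on the minus strand of its window, from 243 to 225 bases before the start. The other 3 genes with an ERSE were the lectin chaperones CALR (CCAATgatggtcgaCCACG) and CANX (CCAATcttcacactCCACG) and the disulphide isomerase PDIA6 (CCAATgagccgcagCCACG), where lower case marks the 9 free bases.

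The libraries held 4751893 to 7305069 counts each, and the values below are counts per 1000000 of the library total (CPM), with n = 3 libraries per group. Fold changes come from edgeR with TMM scaling, and a gene is said to rise or fall where its p-value, adjusted over all genes tested, was under 0.05. After the filter on low counts, 54 of the 57 genes were tested in MM1.S and 55 in JJN3. TXNDC5, a disulphide isomerase, had 0 to 0.814 CPM and DERL3, an ERAD factor, had 0 counts in all 24 libraries, which allows up to 0.631 CPM in the smallest; how reads of overlapping genes were counted is not given in the sources used here, and these values are not read as absence. KDELR3, a receptor that returns chaperones to the ER, was tested in JJN3 only. Plasma cell genes were present in vehicle-treated MM1.S (SDC1 1073 CPM, TNFRSF17 442, IRF4 279) and lower but present in JJN3 (SDC1 102, TNFRSF17 90.0, IRF4 203), whereas CD38 had 4.91 and 0.062 CPM and CD27 was at 0 in both. The 5 markers of T and NK cells summed to at most 0.000329% of counts in any library and the 5 myeloid markers to at most 0.000765%. In JJN3 the 4 libraries of replicate number 2 stood apart from the rest on the second principal component, which held 7.72% of the variance, and results that rest on them are given without them too. In MM1.S the nuclear RNA MALAT1 took 0.542% ± 0.09 (SD, n = 3) of counts with vehicle and 6.44% ± 0.98 with panobinostat, against 0.719% ± 0.26 and 1.14% ± 0.42 in JJN3; its part in the results was not tested.

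Together the 57 genes made up 2.27%, 2.43% and 2.28% of all counts in the 3 vehicle libraries of MM1.S. CX-5461 brought their share to 1.67%, 1.83% and 1.65%, panobinostat to 1.47%, 1.46% and 1.48% and both drugs to 1.41%, 1.38% and 1.3%. Every treated library of MM1.S lay below every vehicle library. In JJN3 the share was 1.67%, 1.83% and 1.58% with vehicle, 1.68%, 1.79% and 1.54% with CX-5461, 1.55%, 1.76% and 1.43% with panobinostat and 1.58%, 1.74% and 1.44% with both. The JJN3 groups overlapped, and replicate 2 had the highest share in each of them. Set against the vehicle library of the same replicate number, the share was lower in each of the 3 pairs with panobinostat and with both drugs, and with CX-5461 it was lower in 2 pairs and higher in 1. The exact 95% interval of each share was at most 0.0273 percentage points wide and covers counting error only. In cultures measured in bulk, fewer cells that express a gene and less RNA per cell cannot be told apart.

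**Figure D1:**
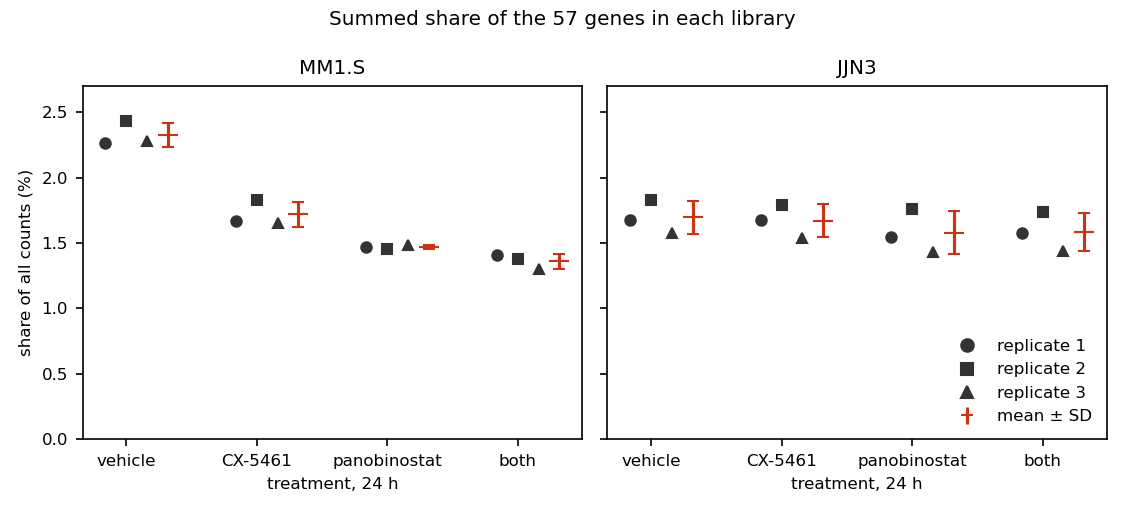
Share of all counts taken by the 57 ER genes, in percent, in each of the 24 libraries by line and treatment; each point is 1 library, its shape gives the replicate number, and the red mark is the mean of 3 with its SD. The treated libraries of MM1.S lie between 1.3% and 1.83%, below all 3 vehicle libraries, while the JJN3 groups overlap and each panobinostat point of JJN3 lies below the vehicle point of the same shape.

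With CX-5461 most ER genes of MM1.S fell. Of the 54 genes tested, 37 fell and none rose, against 7.06% of all 12030 genes that fell and 9.68% that rose. In CPM, all 3 treated libraries lay below all 3 vehicle libraries for 11.3% of all genes and above them for 24.2%. The median log2 fold change was -0.47 for the 54 genes and 0.01 for all genes. The folding factors moved together, with 10 of 13 falling, as did 12 of 15 translocation genes and 6 of 8 transport genes; 3 of 6 disulphide enzymes, 3 of 7 ERAD genes and 3 of 5 oligosaccharyltransferase subunits fell. The fall took in 31 to 36 of the 54 when 1 library was left out; without vehicle replicate 2, 32 fell and 1 rose. With scaling by library size alone, which moved the split of all called genes from 1165 higher and 849 lower to 1544 higher and 509 lower, 30 of the 54 fell and none rose.

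Among the chaperones, HSPA5, the main HSP70 of the ER, had 1369, 1826 and 1532 CPM with vehicle and 769.8, 1102 and 858 with CX-5461 (log2 fold change -0.87 ± 0.12, edgeR adjusted p = 8.81e-06). HSP90B1, its HSP90 counterpart, had 2258, 2209 and 2330.0 CPM and 1566, 1726 and 1532 (log2 fold change -0.57 ± 0.09, edgeR adjusted p = 5.26e-05). In both genes the treated and vehicle libraries did not overlap. FKBP11, a prolyl isomerase found in secretory cells, had the largest fall of the 54, from 94.5, 107 and 103 to 38.3, 57.3 and 47.1 CPM (log2 fold change -1.17 ± 0.15, edgeR adjusted p = 4.26e-06). The BiP partners also fell: SDF2L1 by 0.81 on the log2 scale, the nucleotide exchange factor HYOU1 by 0.75, and the J-domain proteins DNAJC3 by 0.62 and DNAJB11 by 0.45. MANF, a secreted ER stress protein, fell by 0.77. CALR, CRELD2 and DNAJB9 missed the threshold, with log2 fold changes of -0.25, -0.34 and -0.43; for DNAJB9, which restrains the stress sensor IRE1, the edgeR adjusted p was 0.051, and 0.00325 without CX-5461 replicate 2.

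The disulphide isomerase PDIA4 was, after FKBP11, the other gene with a log2 fold change below -1 in MM1.S with CX-5461. It had 411, 408 and 422 CPM with vehicle and 186, 246 and 193 with CX-5461, with no overlap (log2 fold change -1.07 ± 0.11, edgeR adjusted p = 1.32e-07). P4HB, the archetypal protein disulphide isomerase, fell by 0.48 and PDIA3, which works on glycoproteins with CALR and CANX, by 0.60. In ERAD, EDEM1, a lectin that marks misfolded glycoproteins, fell by 0.68 and HERPUD1 by 0.53, whereas SEL1L, the scaffold of the HRD1 ubiquitin ligase, had a log2 fold change of -0.08 (edgeR adjusted p = 0.678). All 3 subunits of the SEC61 channel fell, by 0.50 (SEC61A1), 0.61 (SEC61B) and 0.48 (SEC61G). The translocon-associated proteins SSR1, SSR2 and SSR3 fell by 0.82, 0.57 and 0.59, and SSR4 had -0.21 without passing. Among the signal peptidase genes, SPCS2 fell by 0.68 and the catalytic subunit SEC11C by 0.46. OSTC, an accessory subunit of the oligosaccharyltransferase, went from 365, 423 and 366 to 210.0, 258 and 196 CPM (log2 fold change -0.88 ± 0.11, edgeR adjusted p = 1.98e-06). SEC24D, a COPII coat subunit, went from 14.0, 18.5 and 16.8 to 8.21, 11.7 and 7.94 CPM (log2 fold change -0.89 ± 0.22, edgeR adjusted p = 0.00512). The groups of both genes did not overlap.

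**Figure D2:**
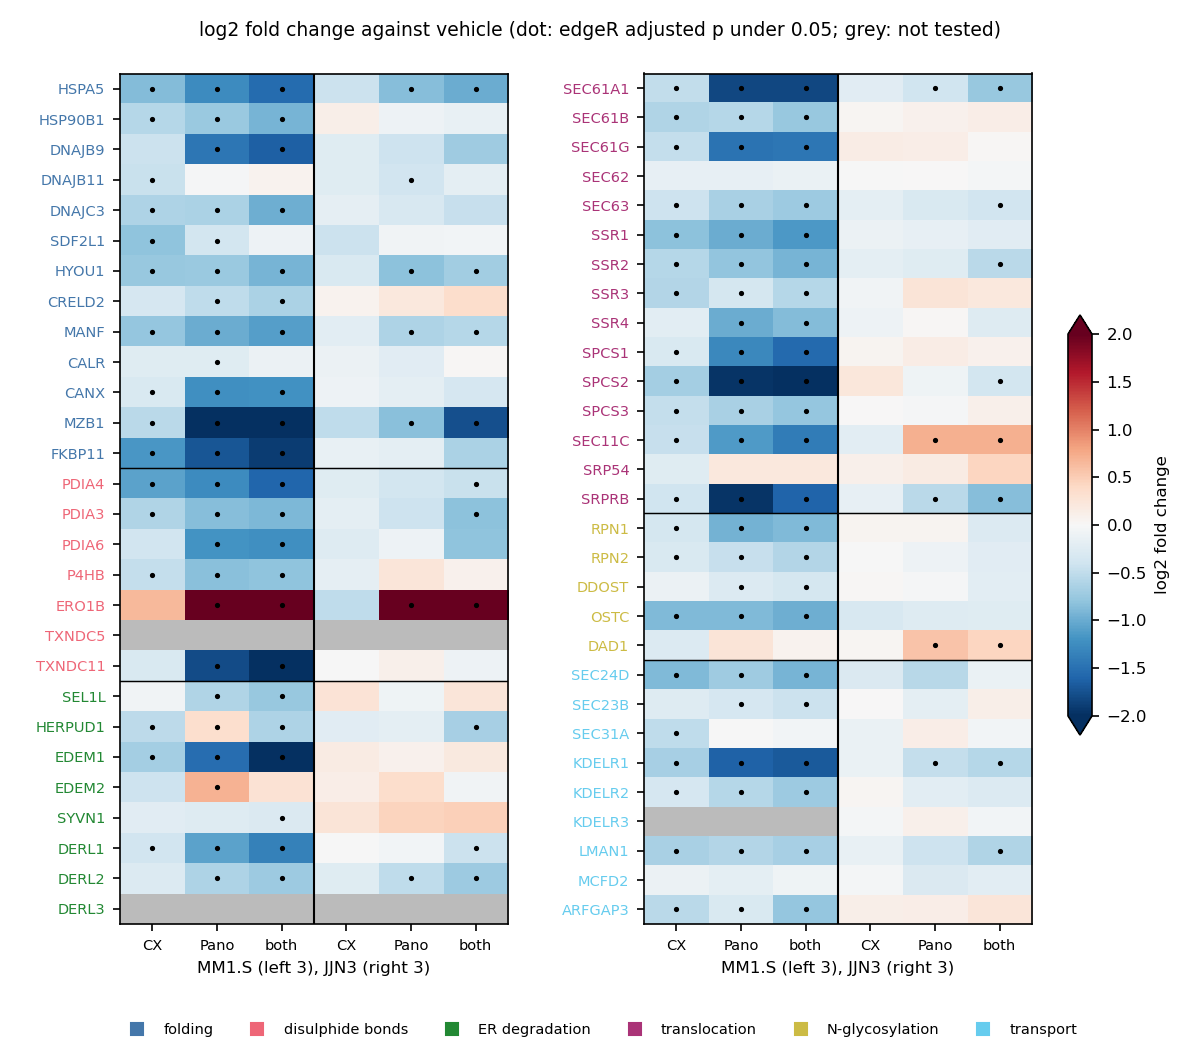
Log2 fold changes against vehicle of the ER genes (rows, grouped by role) under CX-5461, panobinostat and both drugs in MM1.S and JJN3 (columns), from edgeR; a dot marks an adjusted p under 0.05 and grey a gene not tested. In the MM1.S columns 37, 44 and 44 of 54 genes fell, and in the JJN3 columns none, 9 and 16 of 55.

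Panobinostat changed most of the transcriptome of MM1.S, and the ER genes went down. Of the 54 genes, 44 fell and 3 rose, against 32.9% of all genes that fell and 36.9% that rose, with a median log2 fold change of -0.73 against 0.07 for all genes. The falls took in 12 of 13 folding factors, 5 of 6 disulphide enzymes, 4 of 7 ERAD genes, 13 of 15 translocation genes, 4 of 5 oligosaccharyltransferase subunits and 6 of 8 transport genes. In CPM the panobinostat libraries lay below all vehicle libraries for 29.3% of all genes and above them for 42.1%. Scaling by library size alone raised the median of all genes by over 0.1, to 0.20; 39 members then fell and 5 rose, with a median of -0.59.

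MZB1, a B-cell and plasma-cell partner of GRP94 that aids antibody assembly, was the most affected. It had 517, 513 and 490.2 CPM with vehicle and 35.1, 26.8 and 25.5 with panobinostat (log2 fold change -4.26 ± 0.13, edgeR adjusted p = 4.83e-19). The next largest falls were in genes of protein entry and signal peptide removal. SRPRB, the membrane anchor of the signal recognition particle receptor, went from 368, 410.0 and 390.4 to 124, 96.2 and 108 CPM (log2 fold change -1.97 ± 0.11, edgeR adjusted p = 2.17e-14). SPCS2 went from 113, 107 and 116 to 27.9, 31.2 and 36.0 CPM (log2 fold change -1.96 ± 0.12, edgeR adjusted p = 3.96e-13). SEC61A1, the pore of the channel, went from 374, 542 and 433 to 142, 142 and 134 (log2 fold change -1.83 ± 0.13, edgeR adjusted p = 8.42e-12). None of these groups of libraries overlapped. TXNDC11, a thioredoxin-domain protein linked to ERAD, went from 138, 140.1 and 144 to 31.5, 52.8 and 50.5 CPM (log2 fold change -1.78 ± 0.14), also without overlap. KDELR1, the receptor for the KDEL retrieval signal, fell by 1.61 and EDEM1 by 1.52. HSPA5 had 780.5, 666 and 721 CPM with panobinostat (log2 fold change -1.26 ± 0.12, edgeR adjusted p = 1.19e-09), HSP90B1 had 1478, 1435 and 1555 (log2 fold change -0.74 ± 0.09, edgeR adjusted p = 6.04e-08) and PDIA4 had 163, 179 and 228 (log2 fold change -1.26 ± 0.11, edgeR adjusted p = 2.91e-10). All 3 lay below their vehicle libraries. DDOST, an oligosaccharyltransferase subunit, fell by 0.27, but its edgeR adjusted p rose from 0.022 to 0.0569 to 0.084 without vehicle replicate 2 or panobinostat replicate 2 or 3, and to 0.227 with scaling by library size alone.

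The 3 genes that rose in MM1.S with panobinostat were ERO1B, EDEM2 and HERPUD1. ERO1B had 1.93, 4.27 and 2.38 CPM with vehicle and 19.9, 19.8 and 20.2 with panobinostat (log2 fold change 2.71 ± 0.23, edgeR adjusted p = 1.53e-10), with no overlap. HERPUD1 had 612, 839 and 714 CPM and 882, 1046 and 1083 (log2 fold change 0.34 ± 0.11, edgeR adjusted p = 0.0106), with the groups apart by a narrow margin; the adjusted p of edgeR was 0.0893 without vehicle replicate 1 and 0.0531 without panobinostat replicate 3. EDEM2, a mannosidase-like ERAD factor, was low throughout, at 4.49, 3.87 and 4.44 and 7.77, 8.61 and 6.49 CPM (log2 fold change 0.69 ± 0.26). Of the 2 genes that fell with CX-5461 but were near their vehicle level with panobinostat, DNAJB11 had log2 fold changes of -0.45 and -0.03, and SEC31A, a COPII coat subunit, of -0.50 and -0.01.

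**Figure D3:**
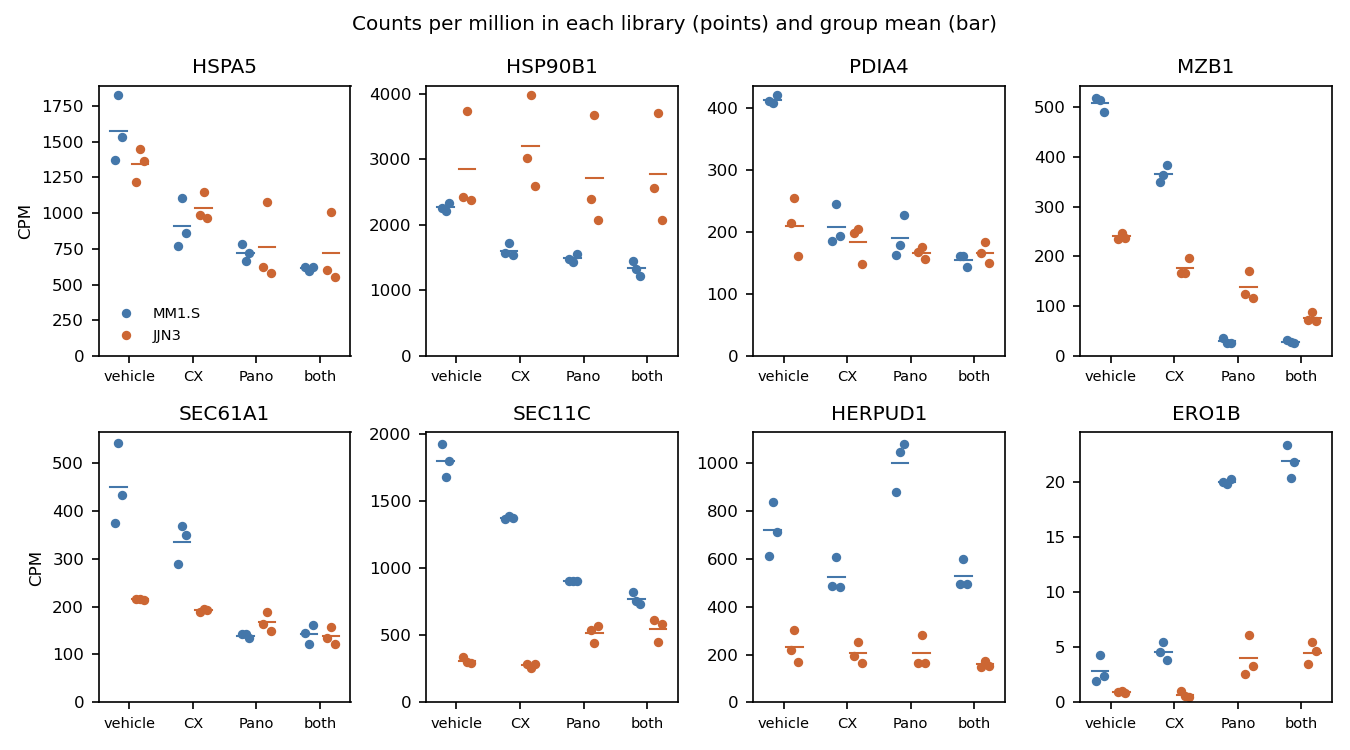
CPM of HSPA5, HSP90B1, PDIA4, MZB1, SEC61A1, SEC11C, HERPUD1 and ERO1B in the 24 libraries by line and treatment; each point is 1 library and the bar marks the mean of 3, on a linear axis of its own for each gene. MZB1 falls from 507 to 29.1 CPM in MM1.S with panobinostat, and SEC11C falls in MM1.S but is higher in JJN3 with panobinostat.

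With both drugs, 44 of the 54 genes fell in MM1.S and 1, ERO1B, rose, against 33.2% of all genes that fell and 37.0% that rose; the median was -0.88 against 0.06. Libraries with both drugs lay below all vehicle libraries in CPM for 28.6% of all genes and above them for 44.4%. This comparison uses the vehicle libraries of the single-drug comparisons. HSPA5 was at 624, 593 and 620.2 CPM (log2 fold change -1.53 ± 0.12, edgeR adjusted p = 3.36e-11), with PDIA4 at 161, 161 and 144 (log2 fold change -1.58 ± 0.11, edgeR adjusted p = 4.66e-12). HSP90B1 was at 1449, 1333 and 1224 (log2 fold change -0.93 ± 0.09, edgeR adjusted p = 1.12e-09). All 3 genes were below every vehicle library. The largest falls on the log2 scale were those of MZB1, at 31.8, 27.4 and 26.2 CPM with both drugs (-4.32 ± 0.13, SE), and TXNDC11, at 25.1, 32.2 and 35.9 CPM (-2.35 ± 0.15). SPCS2 was at 33.8, 24.1 and 26.2 CPM (-2.17 ± 0.12). EDEM1 went from 47.2, 42.7 and 52.3 CPM with vehicle to 11.7, 17.2 and 11.4 (-1.99 ± 0.23), and FKBP11 was at 31.6, 38.2 and 21.6 (-1.90 ± 0.16). No library with both drugs reached the vehicle level of these 5 genes. ERO1B was at 23.3, 20.4 and 21.8 CPM (log2 fold change 2.80 ± 0.23).

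Across the treatments of MM1.S the other genes of a fixed panel, 1 or 2 per role, went as follows. DNAJB9 had 177, 179 and 168 CPM with vehicle, 125, 175 and 109.9 with CX-5461, 61.0, 84.9 and 64.7 with panobinostat and 65.2, 74.9 and 50.6 with both (log2 fold changes -0.43, -1.45 and -1.63, edgeR adjusted p = 0.051, 5.71e-08 and 1.15e-08). SEL1L had 306, 365 and 312 CPM with vehicle, 346, 330.4 and 305 with CX-5461, 195, 272 and 243 with panobinostat and 209, 235 and 208 with both (log2 fold changes -0.08, -0.61 and -0.76, edgeR adjusted p = 0.678, 1.73e-05 and 6.53e-07). Both genes were below every vehicle library with panobinostat and with both drugs, and overlapped the vehicle libraries with CX-5461. SEC61B had 532, 473 and 497 CPM with vehicle, 353, 371 and 316 with CX-5461, 367, 347 and 401 with panobinostat and 339.7, 360.0 and 296 with both (log2 fold changes -0.61, -0.57 and -0.76, edgeR adjusted p = 9.04e-05, 1.67e-05 and 2.02e-07). LMAN1, a cargo receptor, had 251, 279.9 and 262 CPM with vehicle, 164, 197 and 170.3 with CX-5461, 173, 209 and 197 with panobinostat and 201, 201 and 162 with both (log2 fold changes -0.65, -0.59 and -0.66, edgeR adjusted p = 5.26e-05, 1.48e-05 and 3.17e-06). In these 2 genes all treated libraries lay below all vehicle libraries. DDOST had 119, 133 and 106 CPM with vehicle, 111, 116 and 119.8 with CX-5461, 114, 107 and 104 with panobinostat and 108, 109 and 98.8 with both (log2 fold changes -0.12, -0.27 and -0.35, edgeR adjusted p = 0.491, 0.022 and 0.00422), and its groups overlapped under each treatment.

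Set directly against panobinostat alone, the addition of CX-5461 in MM1.S lowered 3 of the 54 genes and raised none, against 1.65% and 2.44% of all genes; scaling by library size alone left 1 lower and 1 higher, and moved the split of all called genes from 293 higher and 198 lower to 401 and 150. HERPUD1, which rose with panobinostat, was at 497, 600.3 and 495 CPM with both drugs, below all 3 libraries with panobinostat alone (log2 fold change -0.95 ± 0.11, edgeR adjusted p = 1.63e-05). In CPM 7.18% of all genes lay lower in this way without overlap and 13.9% higher. The other two were TXNDC11 (log2 fold change -0.56 ± 0.15) and DNAJC3 (-0.34 ± 0.10). TXNDC11 missed the threshold without panobinostat replicate 2 or 3 or combination replicate 1 or 2 (edgeR adjusted p 0.0535 to 0.188), and DNAJC3 without panobinostat replicate 2 or 3 or any of the combination replicates (0.0644 to 0.159). The count was 1 without panobinostat replicate 2, panobinostat replicate 3 or combination replicate 1, and without panobinostat replicate 1 it was 6, with 2 genes that rose. 

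In JJN3, CX-5461 alone changed none of the 55 genes, as of all 11411 genes tested 0% passed in either direction. At an unadjusted p under 0.05 there were 5 of the 55 genes and 633 of all genes, and DESeq2 called none of the 55. The median log2 fold change was -0.11 against 0.00 for all genes, and the largest fall with a level above the lowest genes was that of MZB1, from 235, 247 and 237 to 167, 166 and 196 CPM (log2 fold change -0.50 ± 0.14, edgeR adjusted p = 0.57). In this line same-numbered libraries deviated together, and with the replicate number as a block MZB1 was the 1 gene of the 55 that fell (edgeR adjusted p = 0.0124), against 0.771% lower and 0.605% higher of all genes. HSPA5 was at 1217, 1446 and 1368 CPM with vehicle and 986, 1147 and 966 with CX-5461 (log2 fold change -0.43 ± 0.24). These groups did not overlap, as for 3.33% of all genes (8.33% lay higher without overlap), but the gene did not pass with or without the block (adjusted p of edgeR 0.921 and 0.203 with it). PDIA4 had a log2 fold change of -0.25 ± 0.17 and HSP90B1 of 0.11 ± 0.27.

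Panobinostat lowered 9 of the 55 genes in JJN3 and raised 3, against 10.9% and 15.0% of all genes, with a median of -0.10 against 0.01. With the replicate block the counts were 21 lower and 6 higher, against 19.5% lower and 22.4% higher of all genes. Of the 9 that fell, 5 were among the 13 folding factors, 2 among the 15 translocation genes, 1 among the 7 ERAD genes and 1 among the 9 transport genes. Of the 21 with the block, 9 were folding factors, 4 translocation genes, 4 transport genes, 2 disulphide enzymes, 1 an ERAD gene and 1 an oligosaccharyltransferase subunit; the difference between roles was not tested. HSPA5 had 625, 1081 and 579 CPM (log2 fold change -0.85 ± 0.24, edgeR adjusted p = 0.0207), with replicate 2 well above the others; the call was lost without vehicle replicate 2 or panobinostat replicate 1 or 3 (edgeR adjusted p 0.0648 to 0.0831) and kept with the block (0.000502). HYOU1 went from 319.7, 310.1 and 328 to 199, 187 and 169 CPM (log2 fold change -0.82 ± 0.11, edgeR adjusted p = 8.06e-05), MZB1 from 235, 247 and 237 to 125, 171 and 117 (log2 fold change -0.83 ± 0.15, edgeR adjusted p = 0.000527) and MANF from 188, 207 and 184 to 128, 155 and 103 (log2 fold change -0.62 ± 0.15, edgeR adjusted p = 0.0073). In these 3 genes no treated library reached the vehicle libraries, as was so for 15.5% of all genes, while 22.6% lay higher without overlap. SRPRB had 153, 218 and 168 CPM with panobinostat, down from 254, 290.0 and 223 (log2 fold change -0.54 ± 0.14). KDELR1 fell by 0.47 and SEC61A1 by 0.39. Without panobinostat replicate 3 the number that fell was 5. Without the 4 libraries of replicate number 2, 8 genes fell and 4 rose, against 11.1% lower and 14.2% higher of all genes, and HSPA5 had a log2 fold change of -1.14 (edgeR adjusted p = 5.62e-05).

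The 3 genes that rose in JJN3 with panobinostat were ERO1B, SEC11C and DAD1. SEC11C, which carries out signal peptide cleavage, had 337, 300.4 and 291 CPM with vehicle and 537, 447 and 568 with panobinostat (log2 fold change 0.71 ± 0.13, edgeR adjusted p = 0.000974). DAD1, a subunit of the oligosaccharyltransferase, had 88.0, 79.4 and 81.5 CPM and 128, 119 and 132 (log2 fold change 0.58 ± 0.13, edgeR adjusted p = 0.00303). ERO1B was low, at 0.93, 1.06 and 0.897 CPM and 2.57, 6.10 and 3.33 (log2 fold change 1.99 ± 0.44, edgeR adjusted p = 0.00334). The treated libraries lay above the vehicle libraries for each of the 3. HSP90B1 had 2429.9, 3734 and 2385 CPM with vehicle and 2387, 3672 and 2069.5 with panobinostat (log2 fold change -0.10 ± 0.27), and replicate 2 was the highest under both and the groups overlapped.

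Both drugs together lowered 16 of the 55 genes in JJN3 and raised 3, again ERO1B, SEC11C and DAD1, against 18.2% and 21.0% of all genes, with a median of -0.22 against 0.00; with the block 28 fell and 8 rose, against 25.9% lower and 27.6% higher of all genes. Without overlap in CPM, 17.4% of all genes lay lower and 31.7% higher. The split depended on scaling: by library size alone 10 fell and 8 rose, and the split of all called genes moved from 2400 higher and 2072 lower to 2943 and 1539. MZB1 fell furthest, to 71.1, 88.7 and 70.2 CPM (log2 fold change -1.76 ± 0.15, edgeR adjusted p = 2.34e-07), followed by HSPA5, at 604, 1011 and 556 CPM with replicate 2 again highest (log2 fold change -1.0, edgeR adjusted p = 0.00508). SRPRB was at 149.7, 163 and 144 CPM with both drugs (log2 fold change -0.86 ± 0.14). PDIA3 went from 101, 88.7 and 86.9 to 56.5, 68.2 and 43.6 CPM (-0.83 ± 0.17) and SEC61A1 from 216, 215 and 214 to 135, 158 and 122 (-0.75 ± 0.13). The treated and vehicle libraries of these 3 did not overlap. SEC11C was at 612, 449.6 and 583 CPM (log2 fold change 0.71 ± 0.13, edgeR adjusted p = 0.000456). DAD1 was at 139, 103 and 120.2 CPM. The falls of PDIA4 (-0.45) and LMAN1 (-0.59) were lost without vehicle replicate 1 or 2 or combination replicate 1 or 3 (edgeR adjusted p 0.0927 to 0.157 and 0.092 to 0.178), and the rise of DAD1 (0.43) without vehicle replicate 2 or 3 or combination replicate 1 (0.0502 to 0.0955). With the replicate block these 3 passed (edgeR adjusted p = 0.000133, 1.43e-07 and 0.00025), and without the 4 libraries of replicate number 2 PDIA4 did not (-0.40, 0.107). Without vehicle replicate 2, 11 fell and 5 rose, and without the 4 libraries of replicate number 2, 17 fell and 6 rose, against 17.5% lower and 20.6% higher of all genes.

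Against panobinostat alone, adding CX-5461 in JJN3 lowered MZB1 only, against 0.719% of all genes that fell and 0.184% that rose. MZB1 went from 125, 171 and 117 to 71.1, 88.7 and 70.2 CPM, with no overlap, as for 5.93% of all genes, while 15.6% lay higher without overlap (log2 fold change -0.92 ± 0.15, edgeR adjusted p = 0.00692); without combination replicate 1 the edgeR adjusted p was 0.073. With the replicate block 9 of the 55 genes fell and 3 rose, against 6.48% lower and 5.78% higher of all genes, and the falls then included SEC61A1 (-0.36), HERPUD1 (-0.41) and PDIA3 (-0.41). Scaling by library size alone changed neither count of members, while the split of all called genes moved from 21 higher and 82 lower to 59 and 56.

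In JJN3 several calls of the panel genes rested on the replicate block. DNAJB9 had 36.1, 65.5 and 25.0 CPM with vehicle, 36.1, 48.4 and 26.6 with CX-5461, 30.3, 43.6 and 22.5 with panobinostat and 29.8, 33.7 and 20.1 with both (log2 fold changes -0.24, -0.42 and -0.71, edgeR adjusted p = 0.989, 0.438 and 0.152). LMAN1 had 429, 526 and 354 CPM with vehicle, 388, 504 and 341 with CX-5461, 322, 431 and 252 with panobinostat and 318, 374 and 244 with both (log2 fold changes -0.14, -0.41 and -0.59, edgeR adjusted p = 0.989, 0.203 and 0.0498). In both genes replicate 2 was highest in every group and the groups overlapped. With the block DNAJB9 fell with panobinostat (-0.39, edgeR adjusted p = 0.0151) and with both drugs (-0.65, 8.16e-05), and LMAN1 fell with panobinostat (-0.43, 5.42e-05). PDIA4 had 215, 255 and 162 CPM with vehicle, 199, 205 and 149 with CX-5461, 168, 176 and 157 with panobinostat and 166, 184 and 149 with both (log2 fold change with panobinostat -0.37 ± 0.17, edgeR adjusted p = 0.122, and 0.00249 with the block). SEL1L had 134, 124 and 121 CPM with vehicle, 176, 167 and 135 with CX-5461, 128, 107 and 132 with panobinostat and 161, 167 and 157 with both (log2 fold changes 0.28, -0.08 and 0.24, edgeR adjusted p = 0.892, 0.699 and 0.158). Its libraries with CX-5461 and with both drugs lay above all vehicle libraries, and with the block the gene rose with both drugs, by 0.24 against vehicle (edgeR adjusted p = 0.0336) and by 0.32 against panobinostat alone (0.0262). SEC61B had 217, 227 and 163 CPM with vehicle, 244, 225 and 180.1 with CX-5461, 222, 236 and 197 with panobinostat and 256, 231 and 233 with both (log2 fold changes 0.04, 0.08 and 0.13, edgeR adjusted p = 0.994, 0.752 and 0.52). DDOST had 226, 193 and 226 CPM with vehicle, 258, 207 and 220.2 with CX-5461, 205, 211 and 229.7 with panobinostat and 206, 214 and 183 with both (log2 fold changes 0.03, -0.03 and -0.21, edgeR adjusted p = 0.994, 0.885 and 0.194), a value with both drugs that passed without the 4 libraries of replicate number 2 (-0.35, 0.0496). The other values of HSP90B1 were 3024, 3979.7 and 2588 CPM with CX-5461 and 2559, 3706 and 2081 with both drugs. The libraries of SEC61B with both drugs lay above those with vehicle without passing the test, and the other groups of SEC61B, DDOST and HSP90B1 overlapped vehicle.

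The difference between the lines was tested directly, as the change in JJN3 minus the change in MM1.S on the log2 scale, in a fit of all 24 libraries. For panobinostat the change of 26 of 55 genes was higher in JJN3 than in MM1.S and that of none was lower, against 18.9% and 14.4% of all 12872 genes. Translocation genes made up 12 of the 26, out of 15 tested, with 4 of 13 folding factors, 3 of 6 disulphide enzymes, 4 of 7 ERAD genes, 2 of 5 oligosaccharyltransferase subunits and 1 of 9 transport genes. The difference was 3.44 ± 0.20 (SE) for MZB1, 1.91 ± 0.23 for TXNDC11, 1.90 ± 0.19 for SPCS2, 1.86 ± 0.16 for SEC11C and 1.63 ± 0.42 for EDEM1. SEC11C moved in opposite directions, with 1929, 1678 and 1799.8 CPM in MM1.S with vehicle and 908, 908 and 904 with panobinostat, whereas it rose in JJN3 (edgeR adjusted p of the difference = 2.43e-10). For HSPA5 the difference of 0.43 ± 0.30 did not pass (edgeR adjusted p = 0.295), and for HYOU1, which fell in both lines, it was -0.05 ± 0.17 (0.859). ERO1B rose in both, with a difference of -0.70 ± 0.52 (0.32). The differences for SEL1L and SEC61B (0.55 and 0.67) missed the threshold without certain libraries: SEL1L without MM1.S vehicle replicate 2, MM1.S panobinostat replicate 1 or 3, JJN3 vehicle replicate 3 or JJN3 panobinostat replicate 3 (0.0592 to 0.125), and SEC61B without JJN3 vehicle replicate 3 (0.0717). With the replicate block both passed (0.000863 and 1.99e-05). HSP90B1 (0.66, 0.102) and DNAJB9 (1.06, 0.0754) missed the threshold, and passed with the block (0.64, 1.79e-06 and 1.10, 4.34e-07) and without the 4 JJN3 libraries of replicate number 2 (0.53, 0.0188 and 1.16, 0.0213). Without those 4 libraries the counts were 28 and 2, against 15.3% higher and 14.8% lower of all genes, and with the replicate block 35 and 2, against 23.1% higher and 17.8% lower. In both fits the 2 lower in JJN3 were HERPUD1 and DNAJB11. HERPUD1 had -0.67 (edgeR adjusted p = 0.0105) without those libraries and -0.53 (0.000834) with the block. DNAJB11 had -0.48 (0.02) and -0.33 (0.0319) in the same order.

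**Figure D4:**
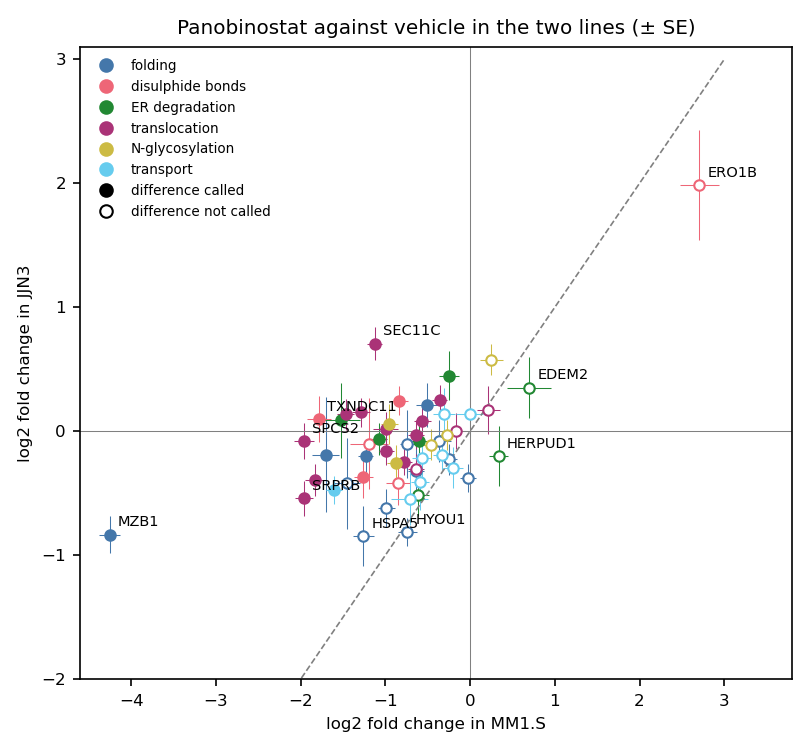
Log2 fold change with panobinostat against vehicle in MM1.S (horizontal axis) and JJN3 (vertical axis), 1 point per ER gene with its SE, coloured by role, filled where the difference between the lines passed the test, with a dashed line of equal change. MZB1 stands at -4.26 in MM1.S and -0.83 in JJN3, and SEC11C at -1.13 and 0.71.

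For CX-5461 the change was higher in JJN3 than in MM1.S for 4 of 55 genes and lower for none, against 0.287% and 1.03% of all genes. These were SPCS2 (0.90 ± 0.18, SE), PDIA4 (0.82 ± 0.21), SSR1 (0.70 ± 0.14) and SEC61G (0.63 ± 0.16). With the replicate block the count was 17, and none were lower, against 1.63% higher and 2.89% lower of all genes. These took in HSP90B1 (0.69, edgeR adjusted p = 1.04e-05) and FKBP11 (1.05) among 5 folding factors, as well as SEC61B (0.65, 0.000425) and LMAN1 (0.52, 0.00315). HSP90B1 also passed without the 4 JJN3 libraries of replicate number 2 (0.73, 0.0189). The count was 7 without JJN3 vehicle replicate 2, and 2 without MM1.S vehicle replicate 1 or 2, MM1.S CX-5461 replicate 1 or 3, JJN3 vehicle replicate 3 or JJN3 CX-5461 replicate 1 or 2; it was 5 without the 4 JJN3 libraries of replicate number 2, against 0.355% higher and 1.15% lower of all genes. PDIA4 missed the threshold in 9 of these 12 fits (edgeR adjusted p 0.0601 to 0.155) and SEC61G in 8 (0.0644 to 0.169), and SEC61G also without the 4 JJN3 libraries of replicate number 2 (0.0869); with the block both passed (7.16e-05 and 8.73e-05). For both drugs together 31 of 55 genes were higher in JJN3 and none lower, against 18.8% and 14.0% of all genes, led by MZB1 (2.58), TXNDC11 (2.26), EDEM1 (2.2) and SEC11C (2.12). HSP90B1 was among the 31 (0.81, edgeR adjusted p = 0.0454) but missed the threshold in 10 of the 12 fits without 1 library (0.0554 to 0.246). It passed with the block (0.79, 2.90e-08) and without the 4 JJN3 libraries of replicate number 2 (0.69, 0.00244). DNAJB9 missed the threshold (0.95, 0.115) and passed in the same fits (1.01, 2.56e-06 and 1.17, 0.0199). Without those 4 libraries the counts were 28 and 1, against 15.7% higher and 15.0% lower of all genes, and with the block 37 and none, against 23.1% higher and 17.3% lower. The vehicle libraries enter all 3 of these comparisons.

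With vehicle, more of the ER genes were lower in JJN3 than higher. In these libraries, 32 of 55 were lower in JJN3 than in MM1.S and 9 were higher, against 33.5% and 30.2% of all genes, with a median of -0.55 against -0.04; with the block the counts were 32 and 10, against 35.4% lower and 31.8% higher of all genes. Of the translocation genes 13 of 15 were lower, led by SEC11C (1929, 1678 and 1799.8 CPM in MM1.S and 337, 300.4 and 291 in JJN3, log2 fold change -2.58 ± 0.12, edgeR adjusted p = 6.29e-18). SEC62, a partner of the SEC61 channel, had 609, 638 and 641 and 149, 216 and 168 CPM (log2 difference -1.87 ± 0.13), and TXNDC11 had 138, 140.1 and 144 and 15.8, 16.7 and 12.4 (-3.27 ± 0.16). None of these values overlapped; 33.8% of all genes lay lower in JJN3 without overlap and 32.4% higher. Among the 9 that were higher in JJN3 were the lectin chaperone CANX (0.53), the oligosaccharyltransferase subunits DDOST (0.81) and RPN1 (0.55) and the cargo receptor LMAN1 (0.68). HSPA5 (-0.27 ± 0.21, edgeR adjusted p = 0.274) and HSP90B1 (0.29 ± 0.21, 0.249) did not differ by the test. The vehicle libraries of the lines overlapped for HSPA5, whereas for HSP90B1 those of JJN3 lay above all those of MM1.S. Line, culture and library preparation cannot be told apart in this comparison.

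The regulators of the unfolded protein response did not move as 1 group. In MM1.S with CX-5461, 3 of 11 tested rose and 2 fell, both larger shares than those of all genes given above for this comparison. DDIT3 (CHOP), a factor induced through the PERK and ATF4 branch, had 3.21, 7.12 and 4.12 CPM with vehicle and 37.6, 46.2 and 36.3 with CX-5461 (log2 fold change 3.02 ± 0.20, edgeR adjusted p = 9.01e-11). PPP1R15A (GADD34), which restores translation, rose by 1.84 and the pseudokinase TRIB3 by 0.99, while XBP1 fell by 0.44. CREB3L2, a factor related to ATF6, fell by 0.43, a call lost without vehicle replicate 1 or 2 or CX-5461 replicate 1 or 3 (edgeR adjusted p 0.0804 to 0.188). ATF4 and ATF6 were not among the genes called with CX-5461. ATF4 had 259, 677 and 255 CPM with vehicle, 355, 421 and 353 with CX-5461 and 169, 185 and 154 with panobinostat. Its CX-5461 libraries lay within the vehicle range, which replicate 2 widened, and its panobinostat libraries lay below that range. For ATF6 the means were 130.8, 119.3 and 117.8 CPM in the same order. With panobinostat 5 of 11 fell, a larger share than that of all genes given above. A smaller share than that of all genes rose, namely 2, DDIT3 (1.72) and PPP1R15A (0.85). With so few regulators these shares were not tested. TRIB3 was among those that fell, from a mean of 32.9 to 11.9 CPM. XBP1 had 2388, 2169 and 2439.6 CPM with vehicle, 1751, 1820.2 and 1872 with CX-5461, 149, 213 and 163 with panobinostat (log2 fold change -3.87 ± 0.11, edgeR adjusted p = 3.54e-19) and 137, 154 and 139.9 with both. In JJN3 it had 828, 823 and 814, 732, 749 and 760.2, 453, 536 and 491 and 285, 303 and 312 CPM in the same order. The fall of XBP1 with panobinostat was smaller in JJN3, by 3.13 ± 0.15 (SE) on the log2 scale. DDIT3 in JJN3 stayed between 4.64 and 7.22 CPM in all 12 libraries, and its change with CX-5461 was lower than in MM1.S (-3.28 ± 0.33, edgeR adjusted p = 9.65e-08). XBP1 has an ERSE in its own window. These counts are of messenger RNA of each gene as a whole and do not separate spliced from unspliced XBP1.

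Of 50 further secretory pathway genes, 49 were tested in each line. In MM1.S, 20 fell and 1 rose with CX-5461, where 7.06% of all genes fell and 9.68% rose. With panobinostat 22 fell and 11 rose, where 32.9% of all genes fell and 36.9% rose, and with both drugs 24 fell and 9 rose, where the shares were 33.2% and 37.0%. The response to panobinostat was mixed: the translocation factor TRAM2 fell by 1.67, the cargo receptor SURF4 by 1.30 and the ERAD ubiquitin-conjugating enzyme UBE2J1 by 2.58, while the COPI coat subunit COPB1 rose by 0.71 and the ERAD lectin OS9 by 0.72. In JJN3 none changed with CX-5461 by edgeR (1 at an unadjusted p under 0.05), 7 fell and 3 rose with panobinostat (10.9% and 15.0% of all genes) and 13 fell and 6 rose with both (18.2% and 21.0%). The disulphide oxidase ERO1A, the paralogue of ERO1B, fell with panobinostat in both lines, by 0.84 in MM1.S and 0.61 in JJN3.

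The cargo of this machinery, antibody chains, and markers of plasma cells and of other cells were read in the same libraries. In MM1.S the joining chain JCHAIN had 2605, 2531 and 2125 CPM with vehicle, 1955, 2245 and 1672 with CX-5461 and 585, 614 and 577 with panobinostat (log2 fold change -2.17 ± 0.11, edgeR adjusted p = 8.62e-15). Its fall with CX-5461 passed, but the groups overlapped. That call was lost in 3 of the 6 fits without 1 library (edgeR adjusted p 0.0534 to 0.099). The 9 immunoglobulin genes listed went from 0.244% ± 0.026 (SD, n = 3) with vehicle to 0.0594% ± 0.0019 of counts with panobinostat. In MM1.S this sum was almost all JCHAIN. IGHA1 and IGHM had 0 counts with vehicle, which is not read as absence. The 9 plasma cell markers summed to 0.346% ± 0.0016 with vehicle, 0.316% ± 0.016 with CX-5461 and 0.0431% ± 0.0093 with panobinostat; 6 of the 7 tested fell with panobinostat, among them SDC1 (CD138) by 3.70 and TNFRSF17 (BCMA) by 6.90. With CX-5461 2 of the 7 fell, IRF4 by 1.26 and TNFRSF17 by 0.61. In JJN3 the immunoglobulin genes, almost all kappa light chain and JCHAIN, took 0.432% ± 0.061 with vehicle and 0.397% ± 0.07 with panobinostat, and neither of the 2 tested changed; 3 of 6 plasma cell markers fell, and their sum went from 0.0753% ± 0.0089 to 0.0538% ± 0.0034. The 5 markers of mature B cells were at 0.00416% to 0.00452% of counts in MM1.S with vehicle, 0.0069% to 0.00942% with CX-5461, 0.00632% to 0.0106% with panobinostat and 0.00681% to 0.00816% with both. These sums were above the vehicle range under each treatment. Of the 3 tested, BACH2 rose with CX-5461 (from 42.5 to 76.5 CPM), and all 3 rose with panobinostat, BCL6 from 0.552 to 16.8 CPM; MS4A1 (CD20) had 0 counts with vehicle. In JJN3 the same sum was 0.00502% to 0.0111% with vehicle, 0.00611% to 0.00836% with CX-5461, 0.00778% to 0.0151% with panobinostat and 0.00856% to 0.0118% with both, and 1 of 2 tested, BCL6, rose with panobinostat (from 2.88 to 14.3 CPM). The 5 markers of stroma, endothelium and epithelium lay between 0.00107% and 0.0028% in the 24 libraries. Among them COL1A1 rose from 0.227 to 13.8 CPM and PECAM1 fell from 23.8 to 3.34 in MM1.S with panobinostat, and EPCAM was at 0.296 CPM in MM1.S and 13.5 in JJN3 with vehicle. Each count of plasma cell or mature B cell markers called was a larger share than that of all genes, given above for the same comparison and direction. These markers are few, and their shares were not tested against that of all genes. The part of any of the markers in the change of the ER genes was not tested.

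The falls were also counted by promoter motif, with the genes divided by an exact match to an ERSE or ERSE-II alone. In MM1.S with CX-5461, 6 of the 10 genes that hold one of these fell (median -0.46) and 25 of the 38 tested genes without one (median -0.48). With panobinostat the counts were 8 of 10 and 30 of 38 (medians -0.62 and -0.64). In JJN3 with panobinostat they were 2 of 10 and 7 of 39 (medians -0.15 and -0.08). The genes without an ERSE or ERSE-II include some that hold a UPRE, which were SEC62, SSR3, SSR4 and TXNDC11 among those tested in MM1.S, with KDELR3 added in JJN3. Of these, 1 of 4 fell in MM1.S with CX-5461, 3 of 4 with panobinostat and none of 5 in JJN3 with panobinostat. The genes with a motif are few, and the counts are given as a description with no test.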

How the data were processed

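RNA was measured by 3′ RNA sequencing of polyA-selected RNA, per the labels' protocols. The authors deposited whole-number counts of reads per gene, by Entrez gene ID, for each library. Per the submitters' processing notes, HISAT2 2.2.1, featureCounts 2.0.1, limma 3.50.0 and the build hg19 were used. The gene annotation and strand setting, and how reads in overlapping genes were assigned, are not stated in these sources. A 3′ library counts 1 end of a transcript, so levels are not divided by length and are compared within a gene only. Of 28395 IDs, 27745 matched a symbol in RefSeq (GRCh38.p14, used for names and promoter windows only) and 650 did not.

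Counts were fitted with edgeR 4.0.16 (R 4.3.3), with filterByExpr, TMM scaling and robust quasi-likelihood F tests, on the 12 libraries of a line (12030 genes in MM1.S, 11411 in JJN3) or on all 24 (12872) for differences between lines, with 12 comparisons in all. P-values were adjusted by Benjamini-Hochberg over all genes tested in each comparison, and the SE of a log2 fold change was taken from its F statistic. The fitting code was tested on simulated data. CPM are counts per 1000000 of the library total (4751893 to 7305069, median 5551876). The spread between replicates, as edgeR's common biological coefficient of variation, came to 0.107 for MM1.S and 0.154 for JJN3; intervals cover counting error only. No 2 libraries of a group agreed within sampling noise.

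Same-numbered JJN3 libraries deviated together (correlations of deviations from the group means 0.170 to 0.442 in 18 of 18 pairs, against -0.288 to -0.00309 for different numbers), so fits with the replicate number as a block are given beside JJN3 results where they change the call of a named gene or a count of calls. In MM1.S only 5 of 18 such correlations were over 0.1 (-0.0428 to 0.262).

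The members, gene lists and tests were chosen with earlier results of these data known. Values by library are given for a fixed panel of 9 genes (HSPA5, HSP90B1, PDIA4, DNAJB9, SEL1L, SEC61B, DDOST, LMAN1 and XBP1) and, for each drug against vehicle, for called members with the 5 largest falls and rises at an average log2 CPM of at least 3; the other comparisons give fold changes. Other members are given as counts, ranges and examples of their role, chosen after their values were seen, and other lists by counts, with genes of small adjusted p in each direction and further examples also chosen after their values were seen. DESeq2 1.42.0, limma-voom 3.58.1, other scalings, no filter, the block and leaving out each library were tried as alternatives, and the fit without replicate number 2 of JJN3 was chosen after seeing the data. One gene of the marker lists is not reported here.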

Additional observations from a re-analysis of the deposited data

Results flagged for a closer look

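The response to a drug differed between JJN3 and MM1.S in 23 results among the genes given in full, by edgeR's test of the difference itself (JJN3 minus MM1.S, log2 scale, all 24 libraries). For CX-5461 these were PDIA4 (0.82), SEC61G (0.63), SPCS2 (0.90) and SSR1 (0.70). For panobinostat they were MZB1 (3.44), XBP1 (3.13), TXNDC11 (1.91), SPCS2 (1.90), SEC11C (1.86), EDEM1 (1.63), PDIA4 (0.92), SEC61B (0.67) and SEL1L (0.55). For both drugs they were XBP1 (2.64), MZB1 (2.58), TXNDC11 (2.26), EDEM1 (2.2), SEC11C (2.12), SPCS2 (1.82), PDIA4 (1.15), SEL1L (1.02), SEC61B (0.92) and HSP90B1 (0.81). Each value is positive, so the change was higher in JJN3. As given above, some of these missed the threshold without certain single libraries. They were PDIA4 and SEC61G with CX-5461, SEL1L and SEC61B with panobinostat and HSP90B1 with both drugs. SEC11C fell in MM1.S and rose in JJN3, with panobinostat and with both drugs. No single library was tested for standing apart, since each group has 3.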

How the results depend on the processing

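Of 3775 values of single genes under alternatives, 3545 kept their direction and their side of the threshold, 143 lost the call, 46 gained it and 41 changed sign, 0 of these 41 being called in either fit. Counts of ER genes that moved by over 1.5 times are given here; the cause was not tested, except that fits without a library have fewer samples. With scaling by library size alone, the number higher in MM1.S was 5 with panobinostat and 3 with both drugs, and both drugs against panobinostat gave 1 higher and 1 lower. In JJN3 the same scaling gave 8 higher and 10 lower with both drugs. Both drugs against panobinostat in MM1.S gave 1 higher with DESeq2, with limma-voom and with no filter on low counts, and the same comparison in JJN3 gave 3 lower with no filter. The difference between the lines for CX-5461 took in 7 genes above 0 with DESeq2 and with no filter. For panobinostat 1 gene was below 0 with RLE scaling, with library size alone, with DESeq2 and with no filter. Without the JJN3 libraries of replicate number 2, 6 genes were higher with both drugs in JJN3, and the differences below 0 numbered 2 for panobinostat and 1 for both drugs.

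With the replicate number as a block, JJN3 had 1 lower with CX-5461, 6 higher and 21 lower with panobinostat, 8 higher and 28 lower with both drugs and 3 higher and 9 lower with both against panobinostat. The differences between the lines with the block were 17 above 0 for CX-5461 and 2 below 0 for panobinostat. In MM1.S the numbers did not pair the libraries by the check; the block gave 40 lower with CX-5461, 4 higher and 45 lower with panobinostat, 1 higher and 44 lower with both drugs and 1 higher and 5 lower with both against panobinostat.

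Leaving out 1 library in turn, MM1.S had 0 to 1 higher and 31 to 36 lower with CX-5461, 2 to 4 higher and 41 to 44 lower with panobinostat, 1 to 2 higher and 43 to 44 lower with both drugs and 0 to 2 higher and 1 to 6 lower with both against panobinostat. JJN3 had 3 to 4 higher and 5 to 10 lower with panobinostat, 2 to 5 higher and 11 to 19 lower with both drugs and 0 to 1 lower with both against panobinostat. The differences above 0 numbered 2 to 7 for CX-5461, 20 to 29 for panobinostat (0 to 2 below 0) and 23 to 33 for both drugs (0 to 1 below 0), and with vehicle 7 to 9 genes were higher and 30 to 32 lower in JJN3.

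The sign of values near 0 changed as follows, as log2 fold changes. With scaling by library size alone DDOST in JJN3 with panobinostat was at 0.0027 and HSP90B1 in JJN3 with both drugs against panobinostat at 0.039. Without replicate number 2 of JJN3 the difference between the lines for both drugs was -0.049 for DDOST and -0.0079 for LMAN1. The ranges without 1 library in JJN3 with CX-5461 were -0.0815 to 0.0993 for DDOST, -0.53 to 0.22 for DNAJB9, -0.0841 to 0.35 for HSP90B1, -0.32 to 0.0058 for LMAN1 and -0.11 to 0.18 for SEC61B. With panobinostat in JJN3 they were -0.13 to 0.015 for DDOST, -0.71 to 0.018 for DNAJB9, -0.40 to 0.12 for HSP90B1 and -0.0752 to 0.17 for SEC61B. With both drugs in JJN3 they were -0.42 to 0.067 for HSP90B1 and -0.023 to 0.19 for SEC61B. Against panobinostat they were -0.32 to 0.24 for HSP90B1, -0.49 to 0.18 for HSPA5, -0.37 to 0.033 for LMAN1, -0.18 to 0.0056 for PDIA4 and -0.037 to 0.11 for SEC61B. The differences between the lines ran from -0.093 to 0.66 for DNAJB9 with CX-5461, from -0.036 to 0.32 for LMAN1 with panobinostat, and with both drugs from -0.0058 to 0.19 for DDOST and from -0.16 to 0.17 for LMAN1. In MM1.S they were -0.13 to 0.0087 for SEL1L with CX-5461 and -0.13 to 0.019 for LMAN1 with both drugs against panobinostat.

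The depth limits genes of low count: 3 counts correspond to 0.411 to 0.631 CPM.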
